A study of Mus musculus with 6 samples.

Results

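Nuclear lamina and high mobility group genes were followed through etoposide-induced senescence of fibroadipogenic progenitors (FAPs), the mesenchymal cells of mouse skeletal muscle that can form fibroblasts and adipocytes. The genes were 10 rows of the deposited table, chosen by symbol: the lamins Lmna, Lmnb1 and Lmnb2, the lamin B receptor Lbr, the high mobility group genes Hmgb1, Hmgb2, Hmgb3, Hmga1 and Hmga2, and Cbx5, which codes for heterochromatin protein HP1 alpha. They are 10 of the 16894 genes listed, and all 10 were among the 14776 that passed the filter on low values. Bulk mRNA of 6 libraries was sequenced, 3 of non-senescent FAPs (called control FAPs here) and 3 of senescent FAPs, all from mice of the C57BL/6 strain. Senescent FAPs had received 20 μM of etoposide, a topoisomerase II poison that breaks DNA, for 48 h and then 5 days of normal medium. The FAPs had been sorted from digested muscle on magnetic columns as cells that carry SCA-1 and lack CD45, CD31 and α7-integrin, and were grown in culture. What the control FAPs received in place of etoposide and how long they stayed in culture are not described in the sources used here. Nothing says whether replicates were separate animals or cultures, so p-values measure only the spread between these samples, which may be technical.

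The libraries held 41412179 to 59912520 reads on genes. Values are CPM (read counts relative to an effective library size, as scaled by the authors), and differences are log2 fold changes of CPM + 0.5, senescent minus control. Falls given as a fold are ratios of group mean CPM, so they need not match the log2 fold changes, which average log values. Cdkn1a, the p21 cell cycle inhibitor, was at 259 to 336 CPM in control FAPs and at 1017 to 1060 CPM in senescent FAPs (log2 fold change 1.85, limma adjusted p = 1.01e-04). Cdkn2a (0.13, adjusted p = 0.765) and Cdkn2b (0.30, adjusted p = 0.282) did not pass the limma test. All 8 FAP markers were listed, with Pdgfra at 126 to 254 CPM and Ly6a, which codes for SCA-1, at 220 to 678 CPM. Their summed level was lower in senescent FAPs (9158 to 13995 CPM) than in control FAPs (15980 to 35141 CPM). Most of this sum came from the collagen genes Col1a1 (mean 15545 CPM in control and 3116.5 CPM in senescent FAPs) and Col3a1 (10041 and 6471 CPM). By limma Col1a1 fell (−2.29), Cd34 (1.60), Lum (1.98), Dcn (1.79) and Ly6a (0.81) rose, and 3 of the 8 were not called. Thy1, a marker of that list, stood at 489 CPM in control replicate 1 and 615 CPM in senescent replicate 1, against 41.3 to 73.6 CPM in the other 4 libraries. Of the markers of other cells, 3 of 8 myogenic genes were listed (summed level 15.2 to 19.5 CPM in control FAPs and 24.3 to 31.3 CPM in senescent FAPs), with Pax7, Myf5, Myod1, Myog and Cdh15 absent from the table. For endothelial cells 5 of 8 were listed (19.2 to 39.5 and 23.8 to 31.2 CPM), and for leukocytes 6 of 10 (10.9 to 13.9 and 27.0 to 32.9 CPM), with Ptprc, Adgre1, Cd3e and Cd79a absent from the table. The part of these cells in the results was not tested.

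The nuclear lamina is a meshwork of A-type and B-type lamins under the inner nuclear membrane that holds heterochromatin at the nuclear edge, partly through LBR. HMGB and HMGA proteins bind and bend DNA in chromatin, and HP1 proteins bind histone H3 methylated at lysine 9. Loss of lamin B1 is a widely used marker of senescent cells, HMGB1 can leave the nucleus during senescence, and HMGA proteins have been found in senescence-associated heterochromatin foci.

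Of the 10 genes, 8 fell in senescent FAPs, none rose and 2 did not pass the test (limma, adjusted p under 0.05). With the replicate number as a block the same test called Hmga1 higher as well. Over all genes tested, 24.3% were called lower and 21.8% were called higher. The control and senescent libraries did not overlap for the same 8 genes, all lower in senescent FAPs, against 30.9% of all genes that were fully apart and lower and 26.5% that were fully apart and higher. The median log2 fold change was −1.06 over the 10 genes and −0.03 over all genes tested. Falls ranged from 6.77-fold for Hmgb2 and 4.66-fold for Lmnb1 to 1.29-fold for Lmna, and the 2 genes without a call were Hmga1 and Hmga2.

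**Figure D1:**
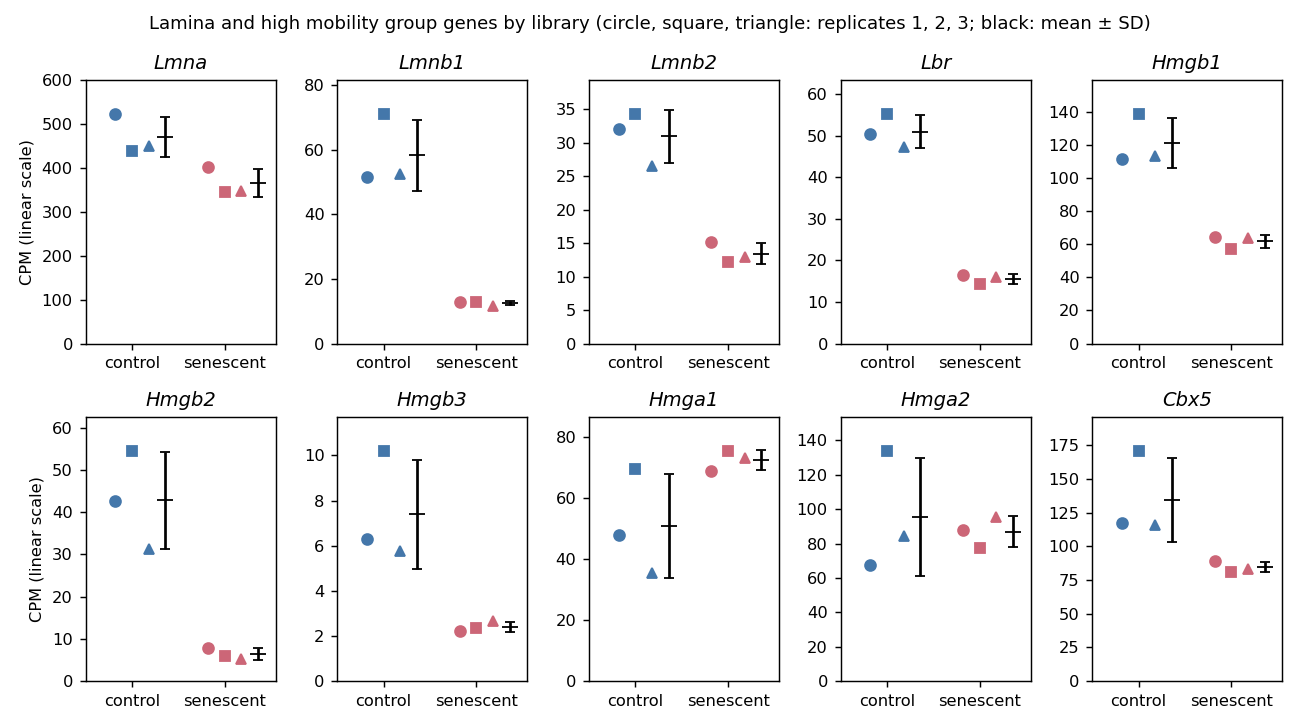
CPM of each of the 10 genes in every library, on linear axes from 0, with control FAPs in blue, senescent FAPs in red, a marker shape for each replicate number, and mean ± SD (n = 3) in black. Control and senescent points are fully apart for every gene except Hmga1 and Hmga2, and the square of control replicate 2 is the highest control point for every gene except Lmna.

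Lmna codes for lamins A and C, the A-type lamins found mostly in differentiated cells. It lies at 3:88480147-88509956 on the minus strand (GRCm38, as are all gene positions here). Its level was 522, 439 and 450.5 CPM in control replicates 1, 2 and 3 and 403, 346 and 348 CPM in senescent replicates 1, 2 and 3. Every senescent library was below every control library, but senescent replicate 1 came near control replicate 2. The mean went from 470.5 ± 45.2 to 365 ± 32.4 CPM (SD, n = 3), a log2 fold change of −0.36 (SE 0.10, 95% interval −0.60 to −0.13, limma adjusted p = 0.0228). This small fall lost its call without control replicate 1 (−0.29, adjusted p = 0.0630), senescent replicate 2 (−0.33, adjusted p = 0.0912) or senescent replicate 3 (−0.33, adjusted p = 0.0818). It also lost it when values were divided by library totals alone, with no scaling between libraries (−0.15, adjusted p = 0.237), which raised the median of all genes by 0.20.

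Lmnb1 codes for lamin B1, a farnesylated B-type lamin that stays attached to the inner nuclear membrane, and lies at 18:56707813-56753424 on the plus strand. Control FAPs held it at 51.5, 70.9 and 52.5 CPM and senescent FAPs at 12.9, 12.8 and 11.7 CPM. The senescent libraries lay close together and far below the lowest control library. The mean fell from 58.3 ± 11.0 to 12.5 ± 0.675 CPM, 4.66-fold, with a log2 fold change of −2.16 (SE 0.13, 95% interval −2.48 to −1.85, limma adjusted p = 1.13e-04). By p-value Lmnb1 ranked 46 of the 14776 genes. These levels rest on 2306 to 3731 reads in control libraries and 521 to 767 reads in senescent libraries.

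Lmnb2, the gene of the other B-type lamin, lamin B2, lies at 10:80901203-80918245 on the minus strand. It was measured at 32.1, 34.3 and 26.5 CPM in control FAPs and at 15.2, 12.2 and 13.0 CPM in senescent FAPs, with no overlap. Its fall was 2.30-fold (log2 fold change −1.17, SE 0.13, limma adjusted p = 5.64e-04), and the 95% interval of −1.48 to −0.87 does not overlap that of Lmnb1. The log2 ratio of Lmnb1 to Lmna within each library was −3.33, −2.62 and −3.09 in control FAPs and −4.91, −4.70 and −4.83 in senescent FAPs. B1 transcripts were thus lower relative to A-type transcripts in all 3 senescent libraries, by 1.80 on average (two-sided exact permutation p = 0.1, the smallest that 3 against 3 can give).

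Lbr codes for the lamin B receptor, an inner nuclear membrane protein that binds B-type lamins and HP1 and also has a sterol reductase domain. It lies at 1:181815335-181843046 on the minus strand, and 440 bases of its exons overlap those of Dnah14, a gene on the other strand that the table does not list. Levels were 50.4, 55.2 and 47.3 CPM in control FAPs and 16.5, 14.2 and 16.1 CPM in senescent FAPs. Both groups were tight, with a coefficient of variation of 7.79% and 7.64%. The fall was 3.27-fold (log2 fold change −1.68, SE 0.10, 95% interval −1.90 to −1.45, limma adjusted p = 9.93e-05), and Lbr ranked 32 of all genes by p-value, ahead of the other 9 genes. As a planned description, the 250 bases before each RefSeq transcript start were searched on both strands for CCAAT, the box bound by NF-Y. The search also covered TTTGAA and TTTAAA, forms of the cell cycle genes homology region (CHR) that the DREAM and MuvB complexes bind, and the E2F motifs given below. The Lbr window (RefSeq, GRCm38.p6, chr1:181842402-181842651, minus strand) is shown 5′ to 3′ with its matches in capitals, CCAAT beginning 68 and 28 bases before the start and TTTGAA, read on the other strand, between them at 45 bases.
Lbr: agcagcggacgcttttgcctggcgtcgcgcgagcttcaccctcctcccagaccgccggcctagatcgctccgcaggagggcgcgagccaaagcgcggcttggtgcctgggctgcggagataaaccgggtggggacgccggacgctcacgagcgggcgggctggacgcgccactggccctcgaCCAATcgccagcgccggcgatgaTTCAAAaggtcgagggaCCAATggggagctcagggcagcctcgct

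Hmgb1 codes for the most abundant HMGB protein, a nuclear DNA-bending factor that also acts as an alarmin outside the cell. Its gene lies at 5:149046702-149184489 on the minus strand and shares 42 exonic bases with Uspl1 on the other strand. The libraries held 112, 139 and 113 CPM in control FAPs and 64.3, 57.4 and 64.1 CPM in senescent FAPs, with no overlap. The level fell 1.96-fold (log2 fold change −0.96, SE 0.10, limma adjusted p = 4.83e-04). A processed copy, Hmgb1-ps7, is identical to Hmgb1 at 639 of 648 aligned bases (98.6%) and held 0.216% to 0.50% of the Hmgb1 level in any library. Adding the copy to Hmgb1 kept the call.

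Hmgb2 codes for an HMGB protein that is most abundant in dividing cells and lies at 8:57511907-57515999 on the plus strand. Its level was 42.7, 54.4 and 31.3 CPM in control FAPs against 7.84, 5.97 and 5.18 CPM in senescent FAPs. Even the lowest control library was well above all senescent libraries. This was the largest fall of the 10 genes, 6.77-fold (log2 fold change −2.65, SE 0.22, 95% interval −3.16 to −2.14, limma adjusted p = 2.43e-04), on 230 to 395 reads in senescent libraries. Hmgb3, an X-linked HMGB gene known from blood stem cells and embryos (X:71555918-71560676, plus strand), was the lowest of the 10 in CPM. It stood at 6.27, 10.2 and 5.74 CPM in control FAPs and 2.20, 2.34 and 2.66 CPM in senescent FAPs, with the control libraries the more spread. It fell 3.08-fold (log2 fold change −1.41, SE 0.22, limma adjusted p = 0.00201).

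Within the family the genes did not fall evenly. The log2 ratio of Hmgb2 to Hmgb1 was −1.37, −1.34 and −1.84 in control FAPs and −2.96, −3.16 and −3.51 in senescent FAPs, a difference of −1.69 with no overlap (two-sided exact permutation p = 0.1, the smallest possible). The windows of Hmgb2 (RefSeq, GRCm38.p6, chr8:57511593-57511842, plus strand), Hmgb3 (chrX:71555667-71555916, plus strand) and the more upstream start of Hmgb1 (chr5:149053058-149053307, minus strand) are shown for comparison, in the same notation as that of Lbr. Hmgb2 holds CCAAT at 243, 198, 73 and 11 bases before the start and TTTGAA at 218 and 30 bases, the first of these on the other strand. Hmgb3 holds CCAAT at 94, 51 and 5 bases, TTTGAA at 122 bases and TTTAAA at 27 bases. Hmgb1 holds CCAAT at 86, 42 and 11 bases and neither CHR form. Whether these matches bear on the uneven falls was not tested.
Hmgb2: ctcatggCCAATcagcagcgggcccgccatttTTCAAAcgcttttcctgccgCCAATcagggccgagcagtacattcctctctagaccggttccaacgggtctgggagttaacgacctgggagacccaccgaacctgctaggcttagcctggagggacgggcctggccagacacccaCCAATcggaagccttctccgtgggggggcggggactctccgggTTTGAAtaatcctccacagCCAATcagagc
Hmgb3: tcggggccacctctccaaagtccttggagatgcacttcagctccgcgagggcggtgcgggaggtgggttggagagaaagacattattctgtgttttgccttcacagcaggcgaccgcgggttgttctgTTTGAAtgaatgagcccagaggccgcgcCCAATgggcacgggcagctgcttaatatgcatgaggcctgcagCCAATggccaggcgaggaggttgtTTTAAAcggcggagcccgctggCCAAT
Hmgb1: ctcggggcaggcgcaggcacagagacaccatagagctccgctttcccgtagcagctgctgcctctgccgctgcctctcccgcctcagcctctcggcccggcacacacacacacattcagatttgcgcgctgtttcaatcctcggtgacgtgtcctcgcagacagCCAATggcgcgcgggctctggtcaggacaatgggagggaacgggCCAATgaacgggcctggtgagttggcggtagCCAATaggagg

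Hmga1 codes for an AT-hook protein that binds the minor groove of AT-rich DNA, and lies at 17:27556497-27563674 on the plus strand. It was the only one of the 10 genes with a higher mean CPM in senescent FAPs on the deposited scale. Control FAPs held 47.7, 69.3 and 35.4 CPM and senescent FAPs 68.8, 75.2 and 73.2 CPM. Control replicate 2 lay just above senescent replicate 1, so the groups overlapped, while the senescent libraries were close together. The log2 fold change of 0.56 (SE 0.21, 95% interval 0.07 to 1.05) did not pass the test (limma adjusted p = 0.0628). With the replicate number as a block it passed (adjusted p = 0.0239), as it did without control replicate 2 (0.81, adjusted p = 0.00159). Over all alternatives that gave it a value, its log2 fold change lay between 0.33 and 0.81 and its adjusted p between 0.00159 and 0.159.

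The antisense gene AI413582 overlaps 102 exonic bases of Hmga1 and held 7.47 to 13.5 CPM, with a log2 fold change of 0.44 (adjusted p = 0.0647). Whether reads were counted by strand is not given in the sources used here.

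Hmga2 codes for the other AT-hook HMGA protein, known from embryonic and mesenchymal cells, and lies at 10:120361275-120476469 on the minus strand. Its level was 67.3, 134 and 84.6 CPM in control FAPs and 87.9, 77.5 and 95.4 CPM in senescent FAPs. All senescent libraries lay inside the range of the control libraries, whose spread was the widest of the 10 genes (coefficient of variation 36.1%, against 10.3% in senescent FAPs). The log2 fold change was −0.08 (SE 0.23, limma adjusted p = 0.804), and the 95% interval of −0.60 to 0.45 leaves room for a fall or a rise. The sign was positive without control replicate 2 (0.20), without senescent replicate 2 (0.0039) and with library totals alone (0.14). In each library the log2 ratio of Hmga2 to Hmga1 was lower in senescent FAPs (0.35, 0.04 and 0.38) than in control FAPs (0.49, 0.94 and 1.24), a difference of −0.63 with no overlap (two-sided exact permutation p = 0.1, the smallest possible). The window of Hmga2 (RefSeq, GRCm38.p6, chr10:120476470-120476719, minus strand) is shown as that of a gene without a call, and none of the searched motifs is in it. Hmga1, also without a call, holds TTTAAA in both of its windows, which overlap, so this is the same site. Lmnb2, which fell, holds none of the motifs. A link between motifs and calls was not tested.
Hmga2: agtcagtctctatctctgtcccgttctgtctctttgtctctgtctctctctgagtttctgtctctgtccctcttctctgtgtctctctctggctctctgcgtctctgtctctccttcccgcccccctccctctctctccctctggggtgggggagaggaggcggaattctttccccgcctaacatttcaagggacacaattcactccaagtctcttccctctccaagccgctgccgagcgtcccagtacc

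Cbx5 codes for HP1 alpha, which binds methylated histone H3 in constitutive heterochromatin, and lies at 15:103191544-103239816 on the minus strand. It was at 117, 170 and 116 CPM in control FAPs and 88.8, 81.2 and 83.5 CPM in senescent FAPs. Senescent libraries were close together and below all control libraries, of which replicate 2 stood highest. The fall was 1.59-fold (log2 fold change −0.64, SE 0.15, 95% interval −0.99 to −0.30, limma adjusted p = 0.00991). It was −0.43 with library totals alone (adjusted p = 0.0487).

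**Figure D2:**
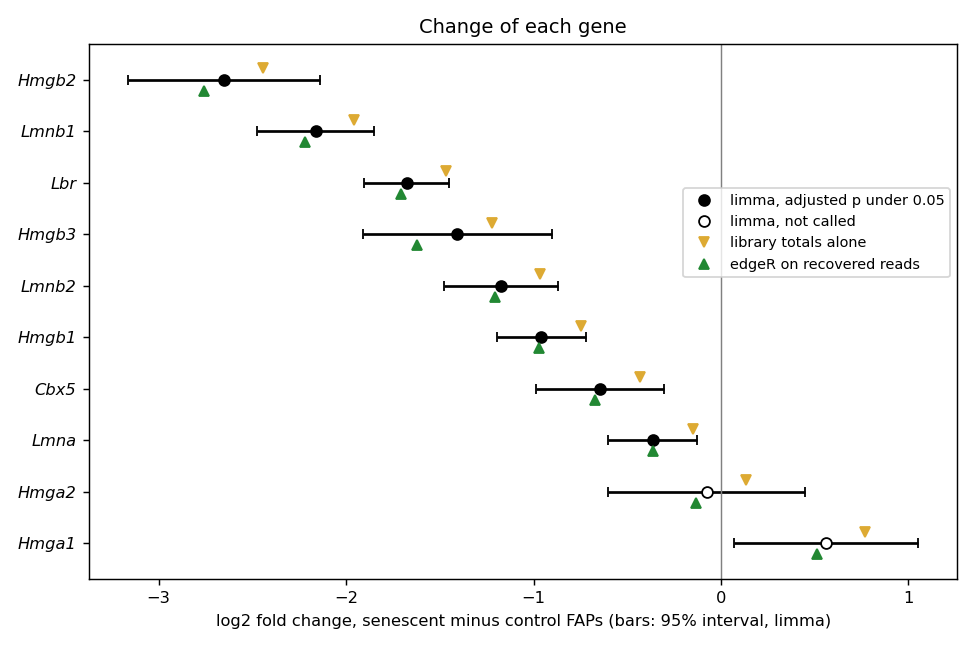
Log2 fold change of each gene, senescent minus control FAPs (n = 3 each), from limma with its 95% interval, filled where the adjusted p is under 0.05, with the values from library totals alone (yellow) and from edgeR on recovered reads (green). The 8 filled points run from −2.65 for Hmgb2 to −0.36 for Lmna, and Hmga2 alone has estimates on both sides of 0.

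RefSeq windows were available for 9 of the 10 genes, all but Lmnb1, 14 windows in all, since some genes have more than 1 start. CCAAT was in a window of 6 of these 9 genes (Lmna, Lbr, Hmgb1, Hmgb2, Hmgb3 and Cbx5) and in 33.85% of the 32851 RefSeq promoter windows of the same length. TTTGAA was in those of 3 genes (Lbr, Hmgb2 and Hmgb3) against 16.0% of all windows, and TTTAAA in those of 3 genes (Hmgb3, Hmga1 and Cbx5) against 12.1%. Lmna, Hmgb1 and Cbx5 held CCAAT in only 1 of their windows, and the TTTAAA of Cbx5 was in its other window. The E2F motifs TTTCCCGC, TTTGGCGC and TTTCGCGC were in none of the 14 windows, and 1 or more of them was in 1.53% of all windows. The windows of Lmnb2 and Hmga2 held none of the motifs. Genes with several starts had more chances of a match than single windows, and a match is a match of letters only.

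**Figure D3:**
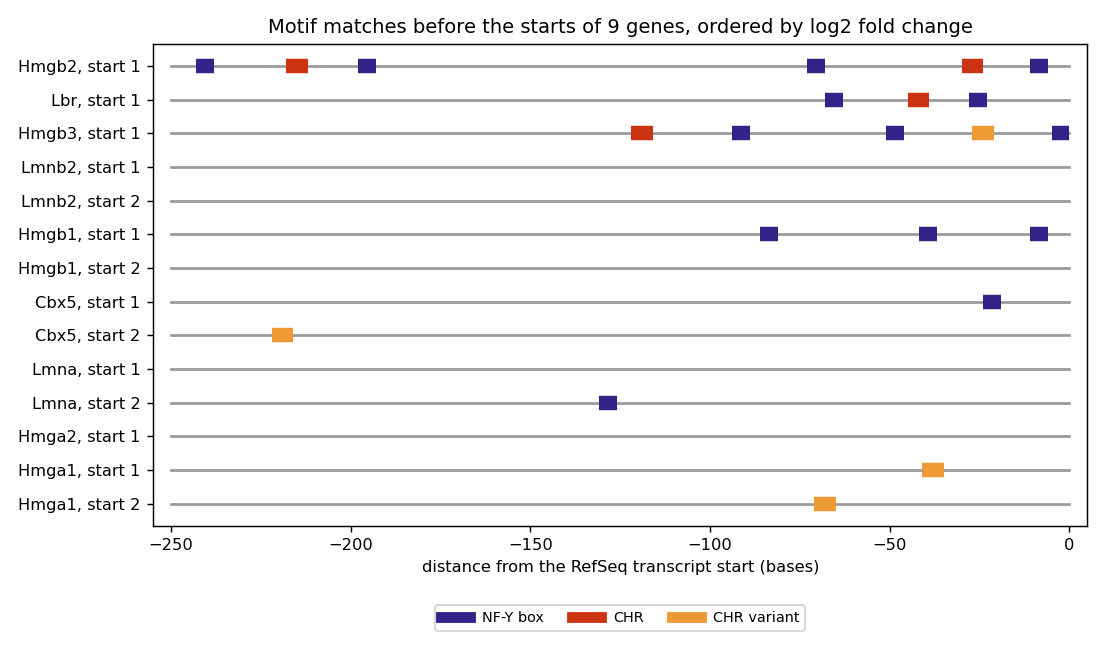
Matches to the NF-Y box and the 2 CHR forms (TTTAAA is drawn as the variant, orange) in the 250 bases before each RefSeq start of 9 genes, in bases from the start, with genes ordered from the largest fall to the highest log2 fold change. Matches to the CHR form TTTGAA (red) lie in the windows of Hmgb2, Lbr and Hmgb3, and a link between matches and fold change was not tested. The windows of Hmga1 overlap, and the TTTAAA drawn in both is the same site.

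To compare levels between genes, CPM were divided by the length of all exons in kb. Lmna was highest in both groups, with 80.6 ± 7.75 CPM per kb in control FAPs and 62.6 ± 5.55 in senescent FAPs (SD, n = 3). In control FAPs Hmgb1 (24.1 ± 3.03), Hmga1 (23.9 ± 8.07), Lmnb1 (19.7 ± 3.70), Cbx5 (14.9 ± 3.46), Hmgb2 (14.3 ± 3.85), Hmga2 (14.1 ± 5.07) and Lbr (10.7 ± 0.834) followed, and neighbours in this order were within their SDs of each other. Lmnb2 (7.22 ± 0.937) and Hmgb3 (3.31 ± 1.08) were apart from their neighbours and lowest. In senescent FAPs Hmga1 came after Lmna, at 34.1 ± 1.54 CPM per kb, then Hmga2 (12.8 ± 1.32) and Hmgb1 (12.3 ± 0.789), which were within their SDs of each other, and Cbx5 (9.38 ± 0.428). Lmnb1 (4.22 ± 0.228), Lbr (3.28 ± 0.250), Lmnb2 (3.14 ± 0.359), Hmgb2 (2.11 ± 0.456) and Hmgb3 (1.07 ± 0.103) were at the low end, with Lbr and Lmnb2 not apart. Hmgb2 thus went from rank 6 to rank 9 of the 10 genes and Hmga2 from rank 7 to rank 3. With the longest coding transcript as the length, Hmga2 was already at rank 4 in control FAPs, and Lbr and Lmnb1 changed places in senescent FAPs.

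Per length, the make-up of each family differed between control and senescent FAPs. Of all lamin transcripts Lmna made up 74.9% ± 4.23 in control FAPs and 89.5% ± 0.260 in senescent FAPs, Lmnb1 18.4% ± 3.66 and 6.05% ± 0.430, and Lmnb2 6.71% ± 0.691 and 4.48% ± 0.177 (SD, n = 3). With the longest coding transcript the share of Lmnb1 was 11.6% ± 2.55 and 3.56% ± 0.258. Among HMGB transcripts the share of Hmgb1 was 58.3% ± 4.50 and 79.5% ± 1.74, that of Hmgb2 33.9% ± 3.92 and 13.6% ± 2.47, and that of Hmgb3 7.81% ± 1.08 and 6.95% ± 0.826. Only the Hmgb3 share overlapped between the groups. Hmga1 made up 62.9% ± 6.09 of HMGA transcripts in control FAPs and 72.6% ± 2.53 in senescent FAPs. The summed lamins lay between 101 and 114 CPM per kb in control FAPs and between 66.4 and 76.9 in senescent FAPs. For the summed HMGB genes these ranges were 35.5 to 50.3 and 14.5 to 16.4. The HMGA sum of the senescent libraries (45.3 to 48.5) lay inside the control range (29.2 to 52.3).

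**Figure D4:**
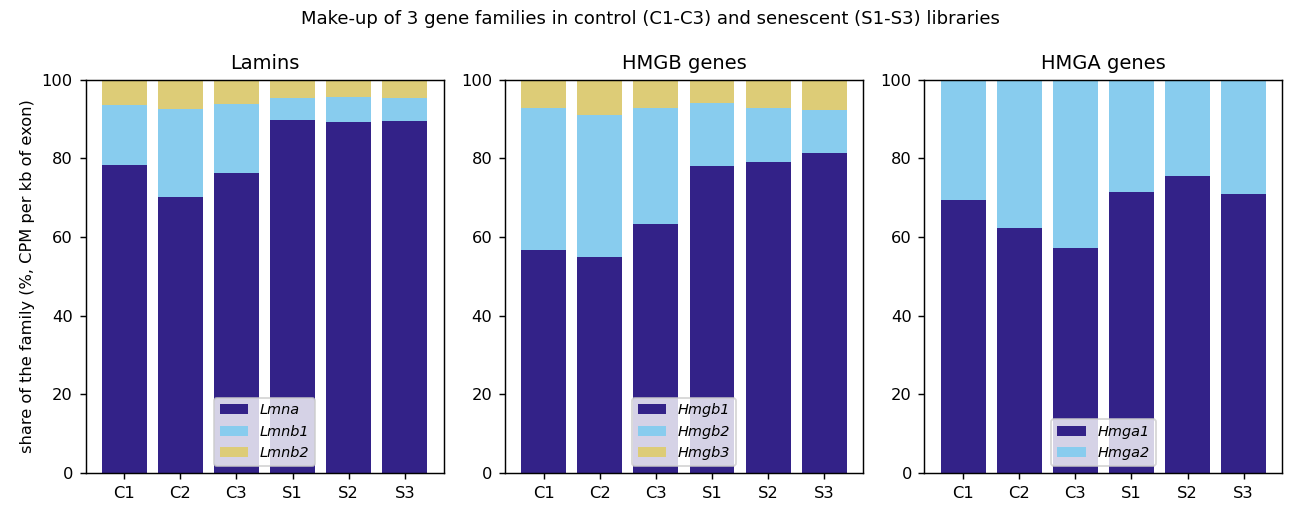
Share of each gene in its family in each library, in percent of CPM per kb of exon, for control (C1 to C3) and senescent (S1 to S3) FAPs. Lmna takes 70.2% to 78.3% of the control bars and 89.2% to 89.7% of the senescent bars, and the Hmgb2 share is 29.3% to 36.2% and 11.0% to 15.9%.

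Control libraries varied more than senescent libraries. The coefficient of variation was larger in control FAPs for all 10 genes, against 61.0% of all genes tested, and reached 32.7% for Hmgb3, 33.8% for Hmga1 and 36.1% for Hmga2. It was only slightly larger in control than in senescent FAPs for Lbr (7.79% and 7.64%), Lmna (9.61% and 8.86%) and Lmnb2 (13.0% and 11.5%). Control replicate 2 was the highest control library for 9 of the 10 genes, all but Lmna, against 38.9% of all genes tested. Relative to the mean of control replicates 1 and 3 it was 1.76-fold higher for Hmga2, 1.69-fold for Hmgb3, 1.67-fold for Hmga1, 1.47-fold for Hmgb2, 1.46-fold for Cbx5, 1.37-fold for Lmnb1 and 1.13-fold for Lbr.

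Transcripts of dividing cells fell along with most of the genes described above, though not with Hmga1 or Hmga2. Of 16 proliferation markers 15 fell and none rose in senescent FAPs (limma, median log2 fold change −2.79, beside 24.3% of all genes called lower), among them the replication helicase subunits Mcm3 (−2.42, adjusted p = 2.11e-04) and Mcm5 (−2.71, adjusted p = 2.52e-04) and topoisomerase Top2a, a target of etoposide (−3.50, adjusted p = 2.52e-04). Their summed level was 835, 1543 and 740 CPM in control replicates 1, 2 and 3 and 228, 220 and 221 CPM in senescent replicates 1, 2 and 3. Control replicate 2 again stood highest, 1.96-fold over the mean of the other control libraries, and senescent libraries were alike. The part of dividing cells in the falls of Lmnb1, Hmgb2 and the other genes was not tested. In bulk RNA, fewer cells that express a gene and less of its RNA per cell cannot be told apart.

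Partners of the lamina were examined as 20 genes of the inner nuclear membrane, the LINC complex that links it to the cytoskeleton, and lamin processing, of which 8 fell, 3 rose and 9 were not called (median log2 fold change −0.14), beside 24.3% lower and 21.8% higher over all genes. With library totals alone 6 of the 20 were called lower and 8 higher. Tmpo, the gene of the lamin-binding LAP2 proteins, was at 54.0, 84.1 and 51.1 CPM in control FAPs and 18.7, 20.3 and 22.8 CPM in senescent FAPs (log2 fold change −1.56, limma adjusted p = 7.32e-04). The next gene of the list by size of fall, Banf1, which joins DNA to LEM proteins of the membrane, had a log2 fold change of −0.68 (adjusted p = 0.00132). Sun1, an inner membrane anchor of the LINC complex (−0.61, adjusted p = 0.00139) and Emd, the gene of emerin (−0.47, adjusted p = 0.00154), also fell. Syne1, the gene of nesprin-1 of the outer membrane (0.69, adjusted p = 0.00206), and Tor1aip2 (0.37) and Tor1aip1 (0.32), which code for membrane activators of torsin, rose. Of the enzymes that process prenylated lamins, Rce1 (−0.65, adjusted p = 0.00704) and Fntb (−0.33, adjusted p = 0.0116) fell, while Zmpste24 (−0.05, adjusted p = 0.731) and Icmt (0.11, adjusted p = 0.210) did not pass the test. The calls of Fntb and Sun2 were lost without senescent replicate 2, and that of Sun2 also without senescent replicate 3. Genes beyond the first 3 by p-value were named after their values were seen, here and in the lists that follow.

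Other high mobility group genes gave 5 lower, 1 higher and 4 not called of 10 (median log2 fold change −0.26), beside 24.3% lower and 21.8% higher over all genes. With library totals alone 3 were called lower and 1 higher. The nucleosome-binding Hmgn2 stood at 55.4, 75.2 and 45.3 CPM in control FAPs and 16.0, 16.2 and 16.7 CPM in senescent FAPs (log2 fold change −1.78, limma adjusted p = 3.37e-04), a fall between those of Lbr and Lmnb1. Its relative Hmgn1 (−0.72, adjusted p = 0.00120) and Ssrp1, a subunit of the histone chaperone FACT (−0.61, adjusted p = 0.00270), fell less. The count of higher genes was 0 without control replicate 1 or 3 or any 1 of the senescent libraries. Hmgxb3 was called lower by a narrow margin (−0.25, adjusted p = 0.0497) and kept that call in only 2 of 15 alternatives. Without senescent replicate 2 the count of lower genes in this list was 3, since Hmgxb4 lost its call too.

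Among 18 other HP1 and heterochromatin genes 13 fell, none rose and 5 were not called (median log2 fold change −0.50), beside 24.3% of all genes called lower. With library totals alone 10 were called lower and 1 higher. Without control replicate 1 the counts were 12 lower and 1 higher, and Ehmt2 was the higher gene in both settings. Suv39h1, a methyltransferase that places the histone mark bound by HP1, was at 31.3, 39.4 and 30.8 CPM in control FAPs and 14.7, 12.5 and 12.1 CPM in senescent FAPs (−1.33, limma adjusted p = 3.63e-04). Hells, a chromatin remodeller needed for DNA methylation, fell further (−1.91, adjusted p = 0.00101). The other HP1 genes were also lower, Cbx3 (HP1 gamma) by −0.69 (adjusted p = 0.00142) and Cbx1 (HP1 beta) by −0.50 (adjusted p = 0.00332), beside −0.64 for Cbx5. Cabin1, a subunit of the HIRA chaperone complex (−0.41, adjusted p = 0.0317), lost its call without control replicate 1 or 3 or senescent replicate 2 or 3. All 3 HP1 genes fell by less than Lmnb1 and Lbr.

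Of the HMGA2 axis, Lin28a and Lin28b, whose proteins block the let-7 microRNAs that repress Hmga2, were not listed in the table. Igf2bp2, an RNA-binding protein gene that HMGA2 activates, was lower (−0.35, limma adjusted p = 0.0165), a call lost without control replicate 3 or senescent replicate 2 and with library totals alone. Igf2bp1 (−0.28, adjusted p = 0.415) and Igf2bp3 (−0.29, adjusted p = 0.752) did not pass the test. Igf2bp3 was at 3.59 and 4.01 CPM in control and senescent replicate 1 and at 12.0 to 21.3 CPM in the other libraries.

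The 4 genes of cell surface receptors or partners of HMGB1 were all higher in senescent FAPs (median log2 fold change 0.67), beside 21.8% of all genes called higher, and Hmgb1 itself fell. Cd24a, which binds HMGB1 and dampens the response to it, was at 2.74, 4.34 and 3.36 CPM in control FAPs and 9.29, 13.8 and 14.3 CPM in senescent FAPs (1.70, limma adjusted p = 8.94e-04). Tlr4, a toll-like receptor, was at 11.5 to 16.0 CPM in control FAPs and rose to 20.9 to 26.9 CPM (0.78, adjusted p = 0.00449). Ager, the gene of the receptor RAGE (0.55, adjusted p = 0.0323), and Tlr2 (0.51, adjusted p = 0.0352) were low, at 0.666 to 3.06 CPM over all libraries, and both lost the call without any of 5 of the 6 libraries, all but control replicate 3. Leukocytes also express these genes, and the summed leukocyte markers given above were higher in senescent FAPs. Their part in this result was not tested.

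**Figure D5:**
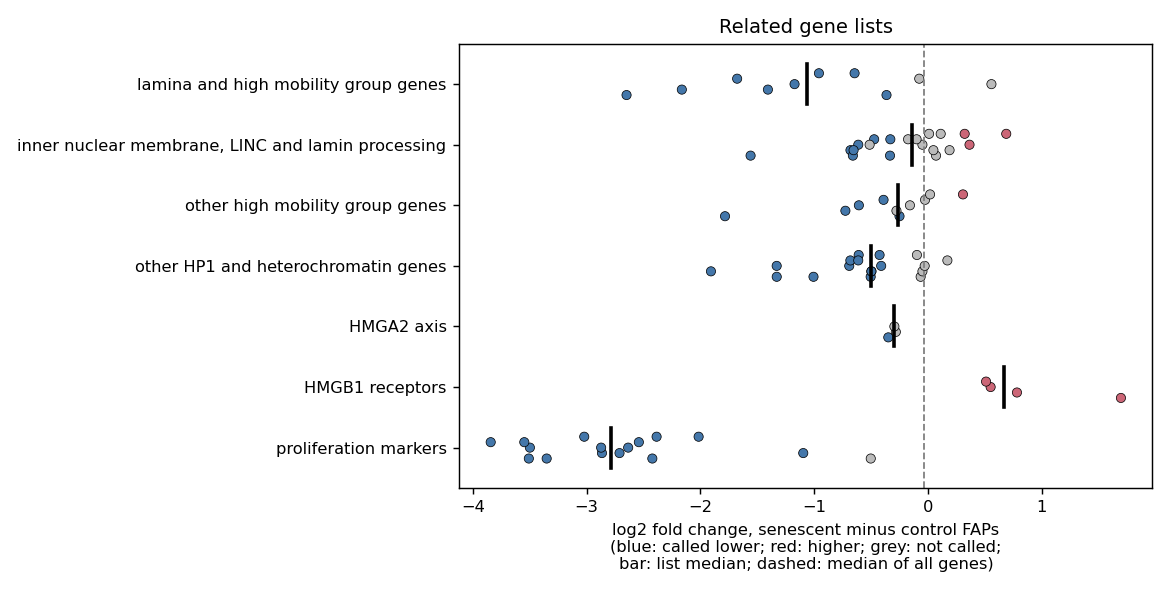
Log2 fold change (senescent minus control FAPs, limma) of each gene of the 10 described and of 6 related lists, blue where called lower, red where called higher and grey where not called, with a bar at the list median and a dashed line at the median of all genes (−0.03). List medians run from −2.79 for proliferation markers to 0.67 for HMGB1 receptors.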

How the data were processed

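Libraries were prepared by the authors with a stranded mRNA kit. The authors deposited 1 table with a signal per gene and library, CPM divided by an effective library size (counts scaled with edgeR, replicates not pooled). The submitters' notes name edgeR 3.10, R 3.6.0 and the build mm10. The aligner, the counter, its use of strand and the filter are not given in the sources used here. Each library was grouped by its title, and dose and times are those of the study's methods. The table named no gene on 1 line (0.00409% to 0.00699% of the values), which was left out.

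Every value (100%) was a whole number of reads to within 0.1 of a read, so read counts could be recovered. The plan assumed CPM of library totals, and the same test was kept for the scaled values. Of the 16894 genes, those that reached 0.5 CPM in 3 or more libraries entered limma 3.58.1 in R 4.3.3 (two-sided, variance trend) on log2(CPM + 0.5), which understates changes of low genes, with Benjamini-Hochberg adjustment over all 14776 genes. Ratios were tested with exact permutation tests over libraries. The fit was tested on simulated data. Alternatives were pseudocounts of 0.1 and 1, no filter or one at 2 CPM, median-of-ratios scaling, library totals alone, leaving out each library, the replicate number as a block, edgeR 4.0.16 (quasi-likelihood) and DESeq2 1.42.0 on recovered reads. The sum of Hmgb1 with its copy was added after the values were seen. Same-numbered control and senescent libraries deviated together (correlations 0.537, 0.308 and 0.207 for replicates 1, 2 and 3, and at most 0.153 for other pairings). The main tests were unpaired, and the numbers were used only in the replicate block alternative. The labels do not say what same-numbered libraries share.

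Gene positions and lengths are those of GENCODE M21 (GRCm38). The genes and lists were chosen with earlier results of these data known. The text names all 10 genes, the 3 genes of smallest p in each related list, Cdkn1a, Cdkn2a and Cdkn2b, and others chosen after their values were seen. Certain items enter the counts but are not reported here. The protein comparison that was planned was not made.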

Additional observations from a re-analysis of the deposited data

How the results depend on the processing

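Of the 10 genes, Lmnb1, Lmnb2, Lbr, Hmgb1, Hmgb2, Hmgb3 and Cbx5 kept their direction and call under every alternative run. Library totals alone moved the median of all genes from −0.03 to 0.17 and gave 1933 genes called lower and 5056 called higher (27.7% of calls lower), against 3592 and 3218 (52.75% of calls lower) with the deposited scaling. It also gave 14 related genes called higher against 8, and reversed Hmga2 (0.14). Leaving out each library gave 2130 to 3405 genes called higher, 5 to 7 related genes called higher, 0 to 1 of the 10 genes called higher, and −0.29 to 0.20 for Hmga2. With the replicate block 3947 genes were called lower and 3576 higher, and the paired fit changed 1 call of the 10 genes, making Hmga1 higher (adjusted p = 0.0239). The count of the 10 genes called higher was therefore 1 with the replicate block, and also 1 with library totals alone and with DESeq2 (Hmga1 0.55). With 3 libraries a group, exact permutation tests cannot go below p = 0.1, and levels of Hmgb3 and Hmgb2 in senescent FAPs rest on at most 140 and 395 reads. The cause of these differences was not tested.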
